A study of Homo sapiens with 12 samples.

Results

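RNA m6A, or N6-methyladenosine, is the commonest internal modification of messenger RNA, and 8 genes of its machinery and of related RNA methyltransferases were followed here. They are the writers METTL3, METTL14 and CBLL1, the erasers FTO and ALKBH5, the reader HNRNPA2B1, and METTL5 and METTL1, which methylate other RNAs. Every probe annotated to one of these genes was taken, which gave 13 probes of the 16381 measured, and 8 genes of the 7452 that could be named. The set was chosen by the log2 intensities of METTL3 with each siRNA against the control, which were known when METTL3 and its relatives were put together, so changes of these 8 genes against the control are given as a description. HNRNPA2B1 is a reader, and METTL1 makes 7-methylguanosine, so the set is wider than m6A writers and erasers.

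HCT116 is a human colorectal cancer cell line. The cells were reverse transfected with Lipofectamine RNAiMAX and 5 nM of siRNA, and RNA was taken 24 h later for Illumina HumanHT-12 v4 BeadChips. One group received siLUC, a control siRNA against luciferase, and the others received siLRH-1 #1 or siLRH-1 #2, which are different siRNAs against the nuclear receptor LRH-1, encoded by NR5A2. Each of the 3 groups had 4 arrays from independent biological replicates, every culture was transfected, and no untransfected cells were part of the comparison. The NR5A2 transcript was not analysed here, so the extent of the knockdown on these arrays is not given.

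In mRNA, m6A is laid down by a complex in which METTL3 is the catalytic subunit and METTL14 holds the RNA substrate, joined by adaptor proteins that include CBLL1, also called HAKAI. FTO and ALKBH5 remove the methyl group, and reader proteins that bind the mark or the structures around it steer splicing, export, translation and decay. METTL5 places m6A on 18S ribosomal RNA, and METTL1 places 7-methylguanosine on transfer RNA. The methyltransferases among these draw on S-adenosylmethionine.

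The 250 bases before the annotated start of METTL3, ALKBH5 and CBLL1 are shown because the values below turn on these genes. They were taken from RefSeq (GRCh38.p14) and run 5′ to 3′ on the gene's strand, at chr14:21511341-21511590 (minus strand) for METTL3, chr17:18183578-18183827 (plus strand) for ALKBH5 and chr7:107743892-107744141 (plus strand) for CBLL1. Capitals mark AANATGGC, the core letters bound by the transcription factor YY1, which were searched after the METTL3 window had been read.
METTL3: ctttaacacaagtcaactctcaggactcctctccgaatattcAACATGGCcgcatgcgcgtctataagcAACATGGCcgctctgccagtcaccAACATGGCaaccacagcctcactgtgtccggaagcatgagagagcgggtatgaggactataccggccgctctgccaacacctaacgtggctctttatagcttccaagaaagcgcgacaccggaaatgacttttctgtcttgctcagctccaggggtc
ALKBH5: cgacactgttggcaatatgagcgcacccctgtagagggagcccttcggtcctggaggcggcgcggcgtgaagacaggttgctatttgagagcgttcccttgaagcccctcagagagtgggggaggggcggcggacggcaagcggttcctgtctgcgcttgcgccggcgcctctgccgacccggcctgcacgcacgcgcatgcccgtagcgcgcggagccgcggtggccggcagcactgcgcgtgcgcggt
CBLL1: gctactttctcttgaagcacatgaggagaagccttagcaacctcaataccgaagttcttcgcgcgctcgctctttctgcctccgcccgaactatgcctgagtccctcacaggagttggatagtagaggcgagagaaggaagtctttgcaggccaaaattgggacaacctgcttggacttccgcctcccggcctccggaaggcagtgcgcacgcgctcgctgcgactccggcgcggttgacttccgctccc
METTL3 held 3 copies, which began 208, 181 and 157 bases before the start. Among the 7 of the 8 genes with a promoter entry, only METTL3 held these letters in the window from 250 bases before to 50 after the start, on either strand. Of all 35116 such windows 6.58% held at least 1 copy and 12 windows (0.0342%) held 3 or more. The letters AAGGTCA, a core to which LRH-1 binds as a monomer, were in none of the 7 windows on either strand, against 3.92% of all windows, and the longer TCAAGGTCA, which contains AAGGTCA, was in none of the 7 against 0.353%. The study gives the site as YCAAGGYCR, where Y is C or T and R is A or G. Its other spellings were not searched. A match, or its absence, describes these windows only.

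Array medians lay between 6.49 and 6.50 on the log2 scale, and arrays of the same group correlated at 0.996 to 0.997 over all probes. No 2 arrays held identical values. The values nonetheless fell into 2 sets of arrays, of 5 and 7, within which the mean of each probe was nearly the same: the sets' probe means differed by a root mean square of 0.0041, against 0.0391 for the next best of 2035 splits. The set of 5 held siLUC replicate 2, siLRH-1 #1 replicate 3 and siLRH-1 #2 replicates 2, 3 and 4, so siLRH-1 #2 was split the other way from siLUC and siLRH-1 #1, and what the sets are was not given in the sources used here. The array of each group that lay in the other set from the rest of its group, siLUC replicate 2, siLRH-1 #1 replicate 3 and siLRH-1 #2 replicate 1, also stood apart from its group on the first principal components. Calls between the siRNAs over all probes went from 2068 to 1302 without siLRH-1 #1 replicate 3. Because the probe means of the sets are nearly equal while siLRH-1 #2 is unequally split between them, changes that involve siLRH-1 #2 may be altered by whatever equalised the sets: its calls against siLUC went from 936 to 1428 with the set in the model. Whether the values were adjusted by set before deposit was not tested. Values for the genes below are therefore given with the set as a block and within each set where these bear on them. Of 9 epithelial markers 7 were measured, and their brightest probes lay at a median 80.3rd percentile of all probes, although KRT20 lay at 9.24; those of the 6 of 14 stromal, leukocyte and endothelial markers measured lay at a median of 29.9, with CD68 the highest at 72.6. With siLRH-1 #1 4 of the 7 epithelial markers passed, beside 17.2% of all probes: CDH1 and EPCAM were higher, and KRT8 and KRT18 lower. Of the 6 other markers 1 passed, CD68, which was lower. These calls are those of the brightest probe of each gene. The other KRT18 probe (7.97 in siLUC cells, 8.04 with siLRH-1 #1) and the other CD68 probes did not pass. With siLRH-1 #2 neither list had a call, beside 5.71% of all probes. Their part in the results was not tested.

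METTL3 had the most negative change against siLUC of the 13 probes with either siRNA. It was represented by a single probe, ILMN_1655635, so no other probe of the gene could be set beside it. In siLUC cells its log2 intensities were 8.91, 9.02, 8.95 and 8.74. With siLRH-1 #1 they were 8.17, 8.11, 8.27 and 8.27. With siLRH-1 #2 they were 8.21, 8.36, 8.29 and 8.44. All 8 siLRH-1 arrays thus lay below all 4 siLUC arrays, a pattern shown by 2.5% of all probes (5.56% with either direction), and the arrays of the siRNAs overlapped each other. The means were 8.90 ± 0.12, 8.21 ± 0.079 and 8.33 ± 0.098 (SD, n = 4), which placed METTL3 at 0.616 of its siLUC level with siLRH-1 #1 and at 0.669 with siLRH-1 #2 on the linear scale. The log2 changes were −0.70 and −0.58 (SE 0.070 for both), the 81st and 34th lowest of 16381 probes. In RNA from a whole culture, a smaller share of cells with the transcript and less of it per cell cannot be told apart.

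**Figure D1:**
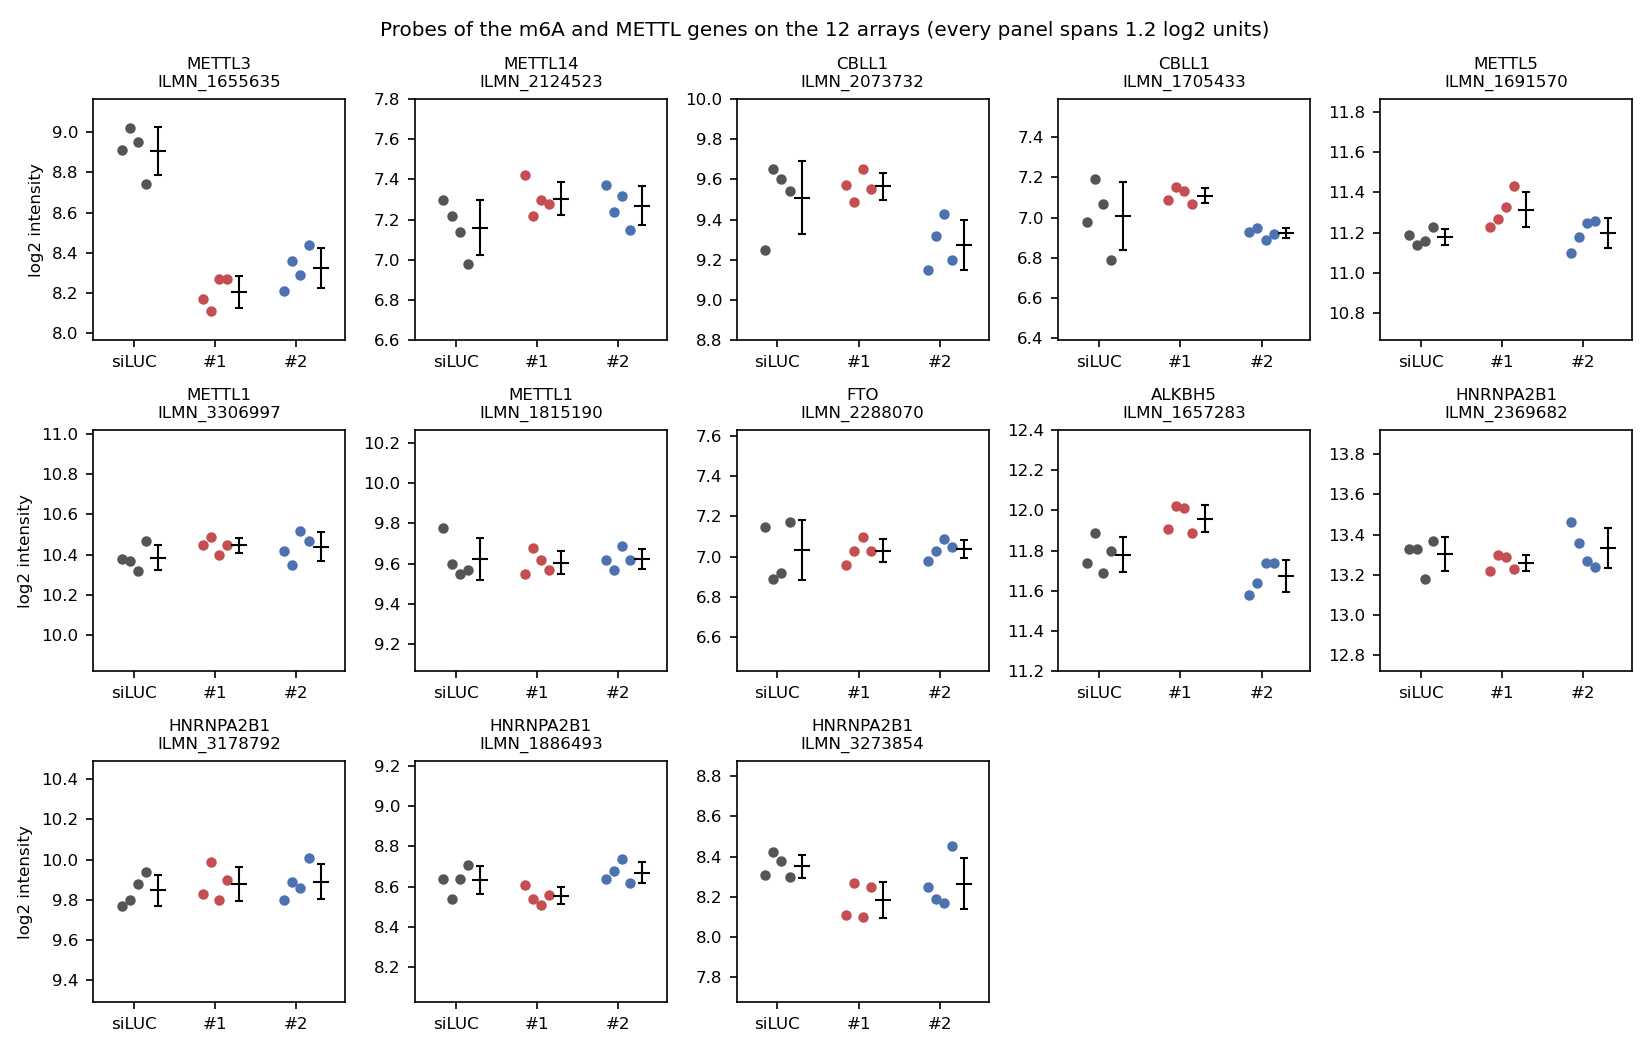
Log2 intensity of each of the 13 probes on the 12 arrays, by group (siLUC, siLRH-1 #1 as #1, siLRH-1 #2 as #2); points are arrays, the bar beside them is the mean with its SD, and every panel spans the same height. METTL3 in siLUC cells (8.74 to 9.02) sits above all siLRH-1 arrays (8.11 to 8.44). ALKBH5 and both CBLL1 probes separate siLRH-1 #1 from siLRH-1 #2, as does HNRNPA2B1 ILMN_1886493, narrowly and in the other direction.

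By the limma model over all probes (Benjamini-Hochberg adjusted p under 0.05), METTL3 was the only one of the 13 probes that passed with siLRH-1 #1, where 17.2% of all probes passed, 9.12% as lower and 8.05% as higher. It was also the only one with siLRH-1 #2, where 5.71% of all probes passed, 2.85% as lower and 2.86% as higher, and 3.24% of all probes passed in one direction with both siRNAs. Counted by arrays that did not overlap, 3 of the 13 probes (METTL3, ALKBH5 and HNRNPA2B1 ILMN_3273854) were apart from siLUC with siLRH-1 #1, beside 19.4% of all probes, and 1 (METTL3) with siLRH-1 #2, beside 11.5%. Nothing is read from these counts, because the response of METTL3 led to the set. As a further description, the METTL3 changes with the set as a blocking factor were −0.70 and −0.65, within the set of 5 they were −0.75 and −0.66, and within the set of 7 they were −0.68 and −0.66. The set of 5 holds 1 siLUC and 1 siLRH-1 #1 array, and the set of 7 holds 1 siLRH-1 #2 array.

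The siRNAs were also compared directly for METTL3, as a description. Its values with each siRNA led to the set, so this comparison is not an independent test. The difference of siLRH-1 #1 minus siLRH-1 #2 was −0.12 (95% interval −0.26 to 0.02, limma adjusted p = 0.325) and shrank to −0.05 with the sets as a block. The interval allows a METTL3 level that is lower by up to 0.26 log2 units, or higher by up to 0.02, with siLRH-1 #1.

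METTL14, the partner that forms the catalytic core with METTL3, was not low on the same arrays. Its log2 intensities were 7.30, 7.22, 7.14 and 6.98 in siLUC cells, 7.42, 7.22, 7.30 and 7.28 with siLRH-1 #1, and 7.37, 7.24, 7.32 and 7.15 with siLRH-1 #2. The 3 groups overlapped. Its log2 changes were 0.15 and 0.11 (SE 0.071), and the siRNAs differed by 0.04 (95% interval −0.11 to 0.18, limma adjusted p = 0.845).

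CBLL1, the ubiquitin ligase of the writer complex, was represented by 2 probes that ordered the groups alike. The brighter, ILMN_2073732, read 9.25, 9.65, 9.60 and 9.54 in siLUC cells. It read 9.57, 9.49, 9.65 and 9.55 with siLRH-1 #1. It read 9.15, 9.32, 9.43 and 9.20 with siLRH-1 #2. All siLRH-1 #2 arrays were below all siLRH-1 #1 arrays, while siLUC overlapped both: its replicate 1 lay among the siLRH-1 #2 arrays, and its replicates 2, 3 and 4 among the siLRH-1 #1 arrays. The log2 changes against siLUC were 0.06 and −0.23 (SE 0.079). The second probe, ILMN_1705433, read 6.98, 7.19, 7.07 and 6.79 in siLUC cells, 7.09, 7.15, 7.13 and 7.07 with siLRH-1 #1, and 6.93, 6.95, 6.89 and 6.92 with siLRH-1 #2. Again the siRNA groups did not overlap each other, and its log2 changes were 0.10 and −0.09 (SE 0.070).

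FTO, the first m6A demethylase described, read 7.15, 6.89, 6.92 and 7.17 in siLUC cells, 6.96, 7.03, 7.10 and 7.03 with siLRH-1 #1, and 6.98, 7.03, 7.09 and 7.05 with siLRH-1 #2. Its siLUC arrays spanned both siRNA groups. The log2 changes were −0.01 and 0.00 (SE 0.068).

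ALKBH5, the other m6A demethylase, read 11.74, 11.89, 11.69 and 11.80 in siLUC cells. It read 11.91, 12.02, 12.01 and 11.89 with siLRH-1 #1. It read 11.58, 11.64, 11.74 and 11.74 with siLRH-1 #2. The siLRH-1 #1 arrays lay above every array of the other groups, although only just above siLUC replicate 2, and siLRH-1 #2 overlapped siLUC. The log2 changes were 0.18 and −0.10 (SE 0.063).

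The reader HNRNPA2B1, an abundant splicing factor, had 4 probes, and its log2 changes lay between −0.17 and 0.03 with siLRH-1 #1 and between −0.09 and 0.04 with siLRH-1 #2. The probes did not move as one. ILMN_3273854 read 8.31, 8.42, 8.38 and 8.30 in siLUC cells, 8.11, 8.27, 8.10 and 8.25 with siLRH-1 #1, and 8.25, 8.19, 8.17 and 8.45 with siLRH-1 #2. There the siLRH-1 #1 arrays lay below all siLUC arrays and the siLRH-1 #2 arrays overlapped them. The other 3 probes ranged from 13.18 to 13.46 (ILMN_2369682), from 9.77 to 10.01 (ILMN_3178792) and from 8.51 to 8.74 (ILMN_1886493) over all 12 arrays, with siLUC overlapping both siRNA groups. HNRNPA2B1 has near-identical copies in the genome, and the probe sequences were not used here, so which copies each probe sees is uncertain.

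METTL5 read 11.19, 11.14, 11.16 and 11.23 in siLUC cells, 11.23, 11.27, 11.33 and 11.43 with siLRH-1 #1, and 11.10, 11.18, 11.25 and 11.26 with siLRH-1 #2. The siLRH-1 #1 arrays began where the siLUC arrays ended. Its log2 changes were 0.13 and 0.02 (SE 0.062). The 2 METTL1 probes changed by 0.06 and −0.02 with siLRH-1 #1 and by 0.05 and −0.00 with siLRH-1 #2. Their arrays covered 10.32 to 10.52 (ILMN_3306997) and 9.55 to 9.78 (ILMN_1815190) with the groups intermixed. The spread between arrays of a group (residual SD) of the METTL1 probes was at the 6.91st and 20.2nd percentile of all probes and that of HNRNPA2B1 ILMN_1886493 at the 4.88th, whereas that of CBLL1 ILMN_2073732 was at the 86.5th and that of METTL3 at the 58.4th.

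**Figure D2:**
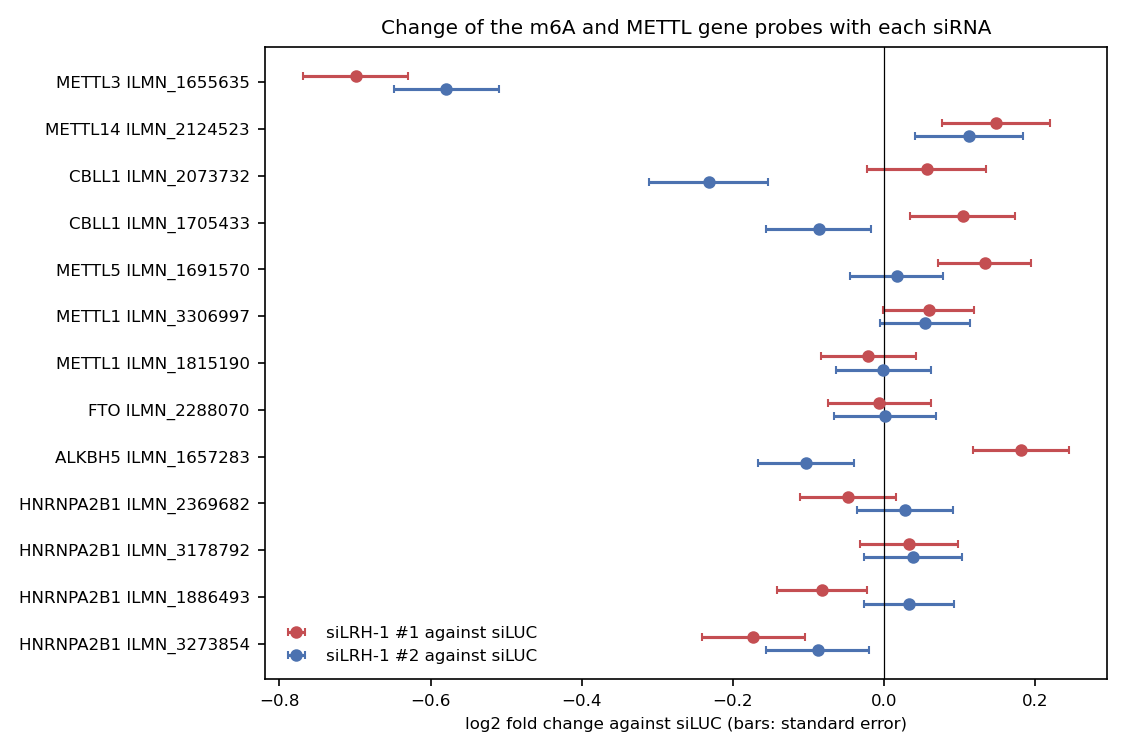
Log2 fold change of the 13 probes against siLUC with siLRH-1 #1 (red) and siLRH-1 #2 (blue); points are limma estimates from 4 arrays a group and bars are standard errors. METTL3 lies at −0.70 and −0.58, and every other probe lies between −0.23 and 0.18.

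Over the 13 probes siLRH-1 #1 gave a median log2 change of 0.03 and siLRH-1 #2 one of 0.00, beside 0.01 and −0.00 over all probes. Apart from METTL3, the largest changes were those of CBLL1 ILMN_2073732 with siLRH-1 #2 and ALKBH5 with siLRH-1 #1, and neither passed. CBLL1 ILMN_2073732 with siLRH-1 #2 passed under 4 of 25 alternative settings, among them the set as a blocking factor (−0.31), and ALKBH5 with siLRH-1 #1 passed under 9 of 25 (0.18 with that factor).

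The direct comparison of the siRNAs gave 2 calls among the 13 probes, ALKBH5 and CBLL1 ILMN_2073732, both higher with siLRH-1 #1, where 12.6% of all probes passed and 5.84% passed as higher. At 2 of 13 (15.4%) the share was close to that of all probes. The siRNA groups did not overlap for 4 of the 13 probes, beside 15.9% of all probes: ALKBH5 and both CBLL1 probes, higher with siLRH-1 #1, and HNRNPA2B1 ILMN_1886493, lower with siLRH-1 #1 (−0.11, limma adjusted p = 0.252). ALKBH5 was higher with siLRH-1 #1 than with siLRH-1 #2 by 0.28 log2 units (95% interval 0.15 to 0.42, limma adjusted p = 0.00298), a ratio of 1.22. A blocking factor for the set of arrays gave a difference of 0.34 (limma adjusted p = 0.000654). Within the set of 5, where 1 siLRH-1 #1 array faced 3 of siLRH-1 #2, the ALKBH5 difference was 0.31, and within the set of 7, where 3 faced 1, it was 0.36. With a single array on one side, neither value is a replicated comparison, and the call did not hold within either set.

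CBLL1 ILMN_2073732 was higher with siLRH-1 #1 by 0.29 log2 units (95% interval 0.13 to 0.45, limma adjusted p = 0.0150), a ratio of 1.22. The block for the sets gave 0.37 (limma adjusted p = 0.00222), and the sets of 5 and 7, each again with a single array on one side, gave 0.33 and 0.39, where the call did not hold. This call was lost without siLRH-1 #1 replicate 3 (0.26, limma adjusted p = 0.0640) and without siLRH-1 #2 replicate 1 (0.25, limma adjusted p = 0.0757). The second CBLL1 probe differed by 0.19 (95% interval 0.05 to 0.33) and missed the threshold (limma adjusted p = 0.0778), but passed with the sets as a block (0.23, limma adjusted p = 0.0382). For the remaining probes the estimate lay between −0.12 and 0.12, and no interval reached beyond −0.26 or 0.24.

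**Figure D3:**
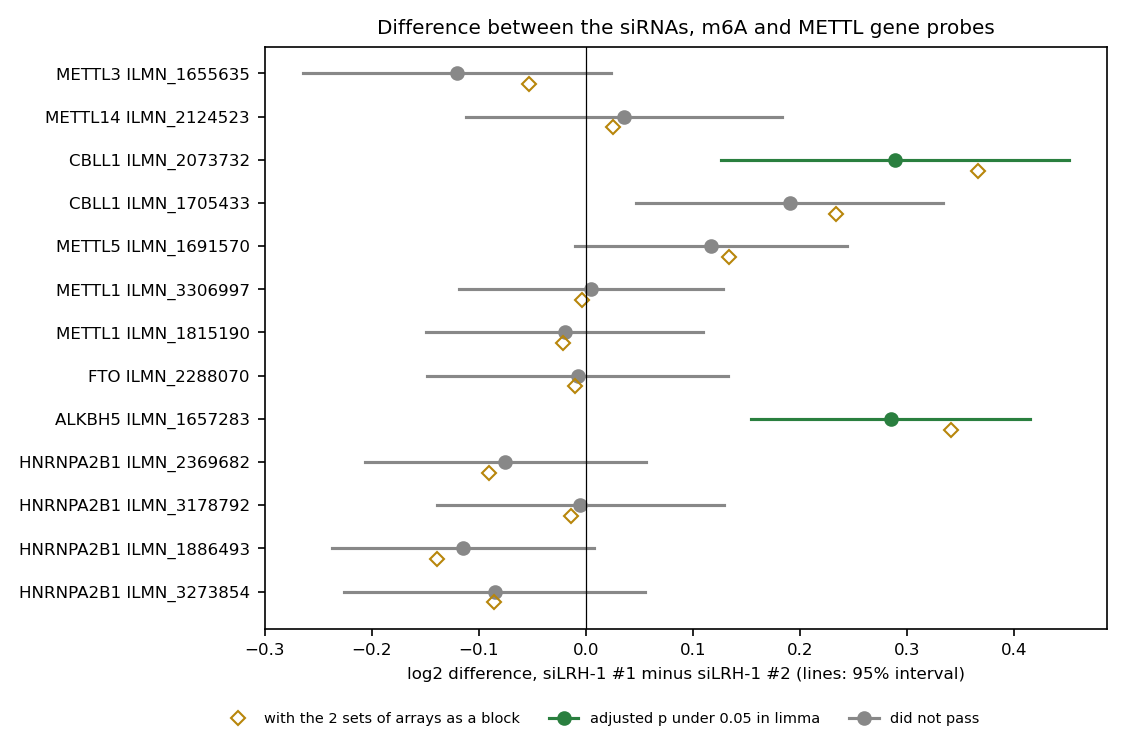
Log2 difference of siLRH-1 #1 minus siLRH-1 #2 for the 13 probes; circles are limma estimates with 95% intervals (green where adjusted p was under 0.05), and open diamonds are estimates with the set of arrays as a blocking factor. ALKBH5 (0.28) and CBLL1 ILMN_2073732 (0.29) are the green points, and the block moves both upwards, to 0.34 and 0.37.

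The genes whose intensities ran most nearly parallel to METTL3 over the 12 arrays were DHX33 (Pearson r = 0.967), HAS3 (0.965), DNMT3B (0.963), KBTBD4 (0.962) and CHURC1 (0.958), out of 7451 other genes. Those most nearly opposite were NAPB (−0.981), C4orf46 (−0.979) and MCUR1 (−0.979). DHX33 is an RNA helicase, HAS3 a hyaluronan synthase and DNMT3B a DNA methyltransferase. The arrays share their groups and their 2 sets, and once group means were removed the correlations were lower, at 0.737 for DHX33, 0.460 for HAS3 and −0.740 for NAPB. The sets were not removed, and the genes had been picked by their correlation over the same arrays, so nothing is read from these values. None of the other 7 genes of the set ran close to METTL3, for example METTL14 (−0.51) and ALKBH5 (−0.23).

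A further 7 lists of genes around the m6A machinery were examined beside the set, with 103 genes listed, of which 54 could be matched to 76 named probes; the other genes were not analysed here. With siLRH-1 #1 10 of these probes rose and 10 fell, or 26.3% against 17.2% of all probes. With siLRH-1 #2 3 rose and 4 fell, or 9.21% against 5.71%. Between the siRNAs 7 were higher and 4 lower with siLRH-1 #1, or 14.5% against 12.6%. The median change over the 76 probes was −0.02, −0.03 and 0.00 in these comparisons. The lists were chosen with earlier results of these data known, and all probes include 6467 without a gene symbol. Nothing is therefore read from these shares or from those of the single lists below.

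Of the other subunits of the writer complex, VIRMA, a large scaffold protein, was measured by 2 probes and neither passed in any comparison. The log2 changes of these probes were 0.04 and −0.04 for siLRH-1 #1 and −0.03 and −0.06 with siLRH-1 #2. WTAP, RBM15, RBM15B and ZC3H13 were not analysed here, nor were TRMT112 and WDR4, the partners of METTL5 and METTL1, nor the YTH readers YTHDF1, YTHDF2, YTHDF3, YTHDC1 and YTHDC2. Among the other adenosine methyltransferases of RNA, 2 of 4 probes rose with siLRH-1 #1 (50%, beside 17.2% of all probes, 8.05% as higher). None of the 4 passed with siLRH-1 #2, beside 5.71% of all probes. The 2 that rose were dim, with siLUC means of 6.71 (METTL4) and 6.64 (METTL16), beside array medians of 6.49 to 6.50. METTL4, which methylates U2 small nuclear RNA, rose by 0.22 (limma adjusted p = 0.0161), and METTL16, which methylates U6 small nuclear RNA and the MAT2A transcript, rose by 0.21 (limma adjusted p = 0.0290). Neither call was firm: METTL4 was lost without siLUC replicate 3 or siLRH-1 #1 replicates 3 or 4 (0.19 to 0.20, limma adjusted p = 0.0576 to 0.0646), and METTL16 without siLUC replicates 2, 3 or 4 or siLRH-1 #1 replicates 1, 2 or 4 (0.18 to 0.21, limma adjusted p = 0.0503 to 0.0957).

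Among 8 probes of m6A readers, 1 rose and 1 fell with siLRH-1 #1 (25%, beside 17.2% of all probes). With siLRH-1 #2 1 fell (12.5%, beside 5.71%). ELAVL1, the RNA-binding protein HuR that stabilises AU-rich transcripts, read 7.30, 7.17, 6.95 and 7.13 in siLUC cells and 7.58, 7.58, 7.67 and 7.48 with siLRH-1 #1. It read 7.12, 7.28, 7.23 and 7.16 with siLRH-1 #2, so the siLRH-1 #1 arrays stood above all others. The rise with siLRH-1 #1 was 0.44 (SE 0.070, limma adjusted p = 6.61e-05), the change with siLRH-1 #2 was 0.06 (0.747), and the siRNAs differed by 0.38 (0.000519). HNRNPC, a nuclear protein that binds RNA opened by m6A, gave divided probes. ILMN_2334587 read 9.66, 9.71, 9.78 and 9.77 in siLUC cells, 9.25, 9.29, 9.10 and 9.18 with siLRH-1 #1 and 9.72, 9.76, 9.66 and 9.36 with siLRH-1 #2. All siLRH-1 #1 arrays were the lowest, and the fall was −0.53 (SE 0.075, limma adjusted p = 1.66e-05), with a difference of −0.42 from siLRH-1 #2 (0.000376). The other HNRNPC probe changed by 0.09 and did not pass (limma adjusted p = 0.394), and HNRNPC has near-identical copies, so its direction is uncertain. PRRC2A, described as a reader in mouse, fell by 0.25 with siLRH-1 #2 on 1 of its 2 probes (limma adjusted p = 0.0271). That call was lost without siLUC replicates 2 or 3 or siLRH-1 #2 replicates 1 or 2 (−0.24 to −0.23, limma adjusted p = 0.0713 to 0.118).

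The other ALKBH dioxygenases, relatives of ALKBH5, had 9 probes. With siLRH-1 #1 1 of them rose and 1 fell (22.2%, beside 17.2% of all probes), and with siLRH-1 #2 1 fell (11.1%, beside 5.71%). ALKBH1, which acts on transfer RNA, gave negative changes on all 3 of its probes with both siRNAs, but 1 passed with siLRH-1 #1 (ILMN_2276750, −0.24, limma adjusted p = 0.0143) and a different one with siLRH-1 #2 (ILMN_1758038, −0.23, 0.0331). The first was lost without siLRH-1 #1 replicate 1 (−0.18, limma adjusted p = 0.0700) and the second without siLUC replicates 1 or 2 or siLRH-1 #2 replicates 1, 2 or 4 (−0.23 to −0.20, limma adjusted p = 0.0613 to 0.129). ILMN_2276750 was also dim, with a siLUC mean of 6.40, beside array medians of 6.49 to 6.50. ALKBH6 rose by 0.20 with siLRH-1 #1 (limma adjusted p = 0.0282), a call lost without siLUC replicates 1 or 3 or siLRH-1 #1 replicates 1, 2 or 3 (0.19 to 0.21, limma adjusted p = 0.0513 to 0.0735). ALKBH8, which modifies wobble uridines of transfer RNA, was higher with siLRH-1 #1 than with siLRH-1 #2 by 0.26 (limma adjusted p = 0.0119), and the call was lost without siLRH-1 #2 replicate 1 (0.21, limma adjusted p = 0.0687).

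The largest change in any list was that of METTL13, which methylates the elongation factor eEF1A. Its probe ILMN_1790575 read 8.54, 8.29, 8.49 and 8.30 in siLUC cells and 7.42, 7.10, 7.14 and 7.32 with siLRH-1 #1. With siLRH-1 #2 it read 8.57, 8.03, 8.14 and 8.18. The siLRH-1 #1 arrays lay far below both other groups, which overlapped. The fall with siLRH-1 #1 was −1.16 (SE 0.094, limma adjusted p = 4.23e-09), to 0.447 of the siLUC level, the change with siLRH-1 #2 was −0.18 (0.348), and the siRNAs differed by −0.99 (1.26e-07). Within the sets of 5 and 7, each with a single array on one side, that difference was −0.98 and −1.29. The other METTL13 probe, ILMN_2343624, fell by 0.18 with siLRH-1 #1 (limma adjusted p = 0.0447) and the siRNAs differed on it by −0.06 (0.647), so the probes disagreed in size.

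The list of other METTL genes and partners held 29 probes. Of these 2 rose and 7 fell with siLRH-1 #1 (31%, beside 17.2% of all probes), and 1 rose with siLRH-1 #2 (3.45%, beside 5.71%). METTL21A, which methylates HSP70 chaperones, rose by 0.36 with siLRH-1 #1 on ILMN_2049364 (limma adjusted p = 0.000299), while its other 3 probes gave −0.16, −0.10 and −0.07 and did not pass. ILMN_2049364 was higher with siLRH-1 #1 than with siLRH-1 #2 by 0.27 (limma adjusted p = 0.00674), and ILMN_1762888 was lower, with a difference of −0.22 (0.0463), so this gene has no settled direction. METTL23, a protein arginine methyltransferase, fell on 2 of 3 probes with siLRH-1 #1, with changes of −0.27 on ILMN_2280731 (limma adjusted p = 0.00327) and −0.21 on ILMN_2382724 (0.0143). NTMT1, which methylates protein N termini, fell by 0.24 with siLRH-1 #1 (limma adjusted p = 0.0201), a call lost without siLUC replicates 1 or 3 or siLRH-1 #1 replicates 2 or 3 (−0.23 to −0.20, limma adjusted p = 0.0511 to 0.0784). METTL9, a protein histidine methyltransferase, rose by 0.25 with siLRH-1 #2 on 1 of 2 probes (limma adjusted p = 0.0395), and this was lost without any 1 of siLUC replicates 1, 3 and 4 or siLRH-1 #2 replicates 1, 3 and 4 (0.20 to 0.27, limma adjusted p = 0.0514 to 0.208). That METTL9 probe, ILMN_1726421, was dim, with a siLUC mean of 6.44. The ILMN_1762888 difference of METTL21A was lost without any 1 of siLUC replicates 1, 3 and 4, siLRH-1 #1 replicates 1, 3 and 4 or siLRH-1 #2 replicates 1 and 3 (−0.23 to −0.17, limma adjusted p = 0.0507 to 0.191).

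Among 10 probes of transfer and ribosomal RNA methyltransferases, 1 rose with siLRH-1 #1 (10%, beside 17.2% of all probes). With siLRH-1 #2 1 fell (10%, beside 5.71%). EMG1, which methylates a pseudouridine of 18S ribosomal RNA, fell by 0.33 with siLRH-1 #2 (limma adjusted p = 0.00998) and was higher with siLRH-1 #1 than with siLRH-1 #2 by 0.30 (0.0101). Both calls were lost without siLRH-1 #2 replicate 1 (−0.23, limma adjusted p = 0.0621, and 0.21, 0.0653), and the first also without siLUC replicate 2 (−0.29, 0.0546). TRMT13, a transfer RNA ribose methyltransferase, rose by 0.23 with siLRH-1 #1 (limma adjusted p = 0.0314), lost without any 1 of siLUC replicates 1 and 4 or siLRH-1 #1 replicates 1, 3 and 4 (0.19 to 0.23, limma adjusted p = 0.0651 to 0.120). It differed between the siRNAs by 0.29 (limma adjusted p = 0.00902).

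The second largest change in any list was that of AHCY, in the supply of S-adenosylmethionine. AHCY, which hydrolyses the S-adenosylhomocysteine that methyltransferases release, read 12.12, 11.92, 11.98 and 12.24 in siLUC cells, 11.36, 11.43, 11.29 and 11.39 with siLRH-1 #1 and 12.07, 11.92, 11.93 and 11.95 with siLRH-1 #2. All siLRH-1 #1 arrays lay below all others, and siLRH-1 #2 overlapped siLUC. The fall with siLRH-1 #1 was −0.70 (SE 0.069, limma adjusted p = 8.61e-08), to 0.617 of the siLUC level, and the change with siLRH-1 #2 was −0.10 (0.530). The siRNAs differed by −0.60 (limma adjusted p = 1.76e-06), and by −0.65 and −0.68 within the sets of 5 and 7, with the same limit. The AHCY change with siLRH-1 #1 had the size of that of METTL3 (−0.70), but AHCY lacked the lower values that METTL3 had with siLRH-1 #2.

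MAT2B, the regulatory subunit of methionine adenosyltransferase, gave positive changes on all 3 probes with both siRNAs. ILMN_1811367 read 10.77, 10.70, 10.93 and 10.81 in siLUC cells, 11.03, 11.28, 11.19 and 11.16 with siLRH-1 #1 and 11.26, 11.04, 11.11 and 11.14 with siLRH-1 #2. The siLUC arrays were the 4 lowest. It rose by 0.36 (SE 0.069, limma adjusted p = 0.000441) and by 0.34 (0.00329), although without both siLUC replicate 2 and siLRH-1 #2 replicate 1 the second change was 0.26 (0.112). ILMN_1673960 rose with siLRH-1 #1 (0.35, limma adjusted p = 0.000432) and read 0.16 with siLRH-1 #2 (0.201). ILMN_1680246 rose with siLRH-1 #2 (0.28, limma adjusted p = 0.0216) and read 0.18 with siLRH-1 #1 (0.108). The ILMN_1680246 call was lost without any 1 of siLUC replicates 1, 2 and 4 or siLRH-1 #2 replicates 1 and 3 (0.24 to 0.28, limma adjusted p = 0.0595 to 0.119).

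AHCYL1, a relative of AHCY that binds the inositol trisphosphate receptor, fell by 0.34 with siLRH-1 #2 (limma adjusted p = 0.00388) and differed between the siRNAs by 0.26 (0.0139), the latter lost without siLRH-1 #1 replicate 3 (0.23, limma adjusted p = 0.0632) or siLRH-1 #2 replicate 1 (0.21, 0.0826). MTAP, which salvages methionine from methylthioadenosine, rose by 0.19 with siLRH-1 #1 (limma adjusted p = 0.0213), lost without siLUC replicates 2 or 4 or siLRH-1 #1 replicate 4 (0.16 to 0.18, limma adjusted p = 0.0508 to 0.0773). In this list of 14 probes, 3 rose and 1 fell with siLRH-1 #1 (28.6%, beside 17.2% of all probes). With siLRH-1 #2 2 rose and 1 fell (21.4%, beside 5.71%).

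**Figure D4:**
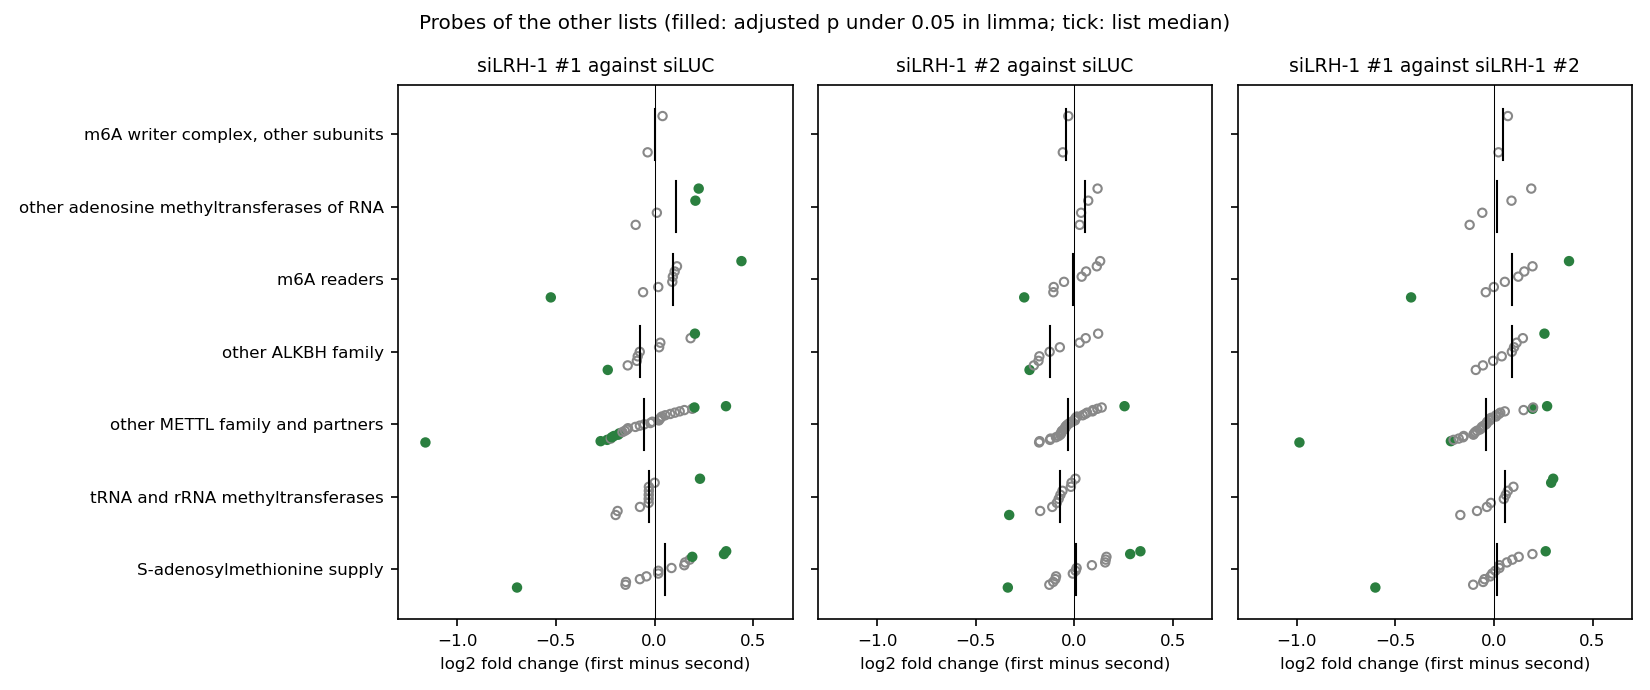
Log2 fold change of the 76 probes of the 7 other lists in each comparison; filled green points had a limma adjusted p under 0.05 and the vertical tick is the median of the list. METTL13 (−1.16) and AHCY (−0.70) are the far left points with siLRH-1 #1, and neither is there with siLRH-1 #2.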

How the data were processed

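RNA of 12 HCT116 cultures was hybridised to Illumina HumanHT-12 v4 BeadChips, 1 array each. Per the study's methods, the authors used GenomeStudio for pre-processing, left out any probe whose detection p-value exceeded 0.05 on every array, and log2-transformed and quantile-normalized the signals in Partek Genomics Suite. The deposited values are these log2 intensities. Quantile normalization equalises arrays, so a change shared by most transcripts cannot be seen. The 24 columns of non-normalized signals and detection p-values carry names that match no sample and were not used.

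Of 16381 probes, 9910 had 1 gene symbol in the platform annotation, 4 several and 6467 none; 9904 gene IDs were found in RefSeq and no symbol changed. Groups were taken from the sample titles. A linear model over all 12 arrays was fitted to all probes with limma 3.58.1 in R 4.3.3 (lmFit and eBayes, 9 residual and 14.6 prior degrees of freedom); p-values were adjusted by Benjamini-Hochberg across the whole table and called under 0.05. It was checked on simulated data. Spread between 4 arrays a group limits the precision. Levels of different probes were compared only for the markers, by percentile, and where a probe is called brighter or dim. Promoter windows were RefSeq sequences searched with Python. The genes and lists were chosen with earlier results of these data known. All probes of the 8 genes are given, and of each other list the called probes with the largest change in any comparison, up to 6, plus core writer, reader and partner genes. In all 25 alternatives were run, 4 of them added after the data were seen. neqc background correction, a detection filter and a slide block were not run, because the non-normalized columns could not be matched to samples.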

Additional observations from a re-analysis of the deposited data

Results flagged for a closer look

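Differences between the siRNAs that passed the limma test of siLRH-1 #1 minus siLRH-1 #2 over all probes (adjusted p under 0.05) were found for 2 probes of the 8 genes, ALKBH5 (0.28) and CBLL1 ILMN_2073732 (0.29). In the other lists, log2 values were higher with siLRH-1 #1 for ELAVL1 (0.38), EMG1 (0.30), TRMT13 (0.29), METTL21A ILMN_2049364 (0.27), AHCYL1 (0.26) and ALKBH8 (0.26). VCPKMT ILMN_1781102, of the other METTL genes and partners and not named above, was also higher (0.20, limma adjusted p = 0.0442). They were lower with siLRH-1 #1 for METTL13 ILMN_1790575 (−0.99), AHCY (−0.60), HNRNPC ILMN_2334587 (−0.42) and METTL21A ILMN_1762888 (−0.22). The METTL21A probes thus differed in direction.

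One array was flagged because its gap to the nearest array was large for the range of its group. For siLUC replicate 1, VIRMA ILMN_1741841 read 7.62, against 7.53 for the nearest and 7.52 for the farthest of the others. The other 3 arrays lay close together, and the median residual SD of all probes was 0.095, so the gap itself was small. This was the only flag in 114 groups of 4 arrays, whereas chance alone gives about 1 in 20.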

How the results depend on the processing

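No change that had passed turned its sign under any alternative, but some that had not passed did, such as METTL13 ILMN_1790575 with siLRH-1 #2 (−0.33 to 0.13), METTL9 ILMN_1726421 with siLRH-1 #1 (−0.05 to 0.27) and METTL5 with siLRH-1 #2 (−0.09 to 0.09). In all 25 alternatives were run, and 24 for METTL4, METTL16, METTL9 ILMN_1726421 and ALKBH1 ILMN_2276750, which a minimum mean left out. METTL3 passed in all 25, at −0.76 to −0.66 with siLRH-1 #1 and −0.66 to −0.50 with siLRH-1 #2. Among the 13 probes of the 8 genes, where 1 passed with each siRNA, siLRH-1 #1 gave 3 calls with dim probes (mean log2 under 7) left out, and 2 with 16 added before log2, with an intensity trend, with median centring, with the set of arrays as a blocking factor or with siLUC replicate 2 and siLRH-1 #2 replicate 1 both left out. siLRH-1 #2 gave 2 with dim probes left out or the sets as a block. Leaving out 1 array gave 1 to 2 for either. The added calls were ALKBH5 and, with dim probes left out, HNRNPA2B1 ILMN_3273854 for siLRH-1 #1, and CBLL1 ILMN_2073732 for siLRH-1 #2. The 2 calls between the siRNAs became 1 with each probe's own variance, at an adjusted p under 0.01 or with both arrays left out, 0 within the set of 5 and 0 within the set of 7, and 1 to 3 without 1 array.

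Among the 76 probes of the other lists, the 20 calls with siLRH-1 #1 became 8 at 0.01, 2 within the set of 5, 9 within the set of 7 and 12 to 20 without 1 array. The 7 with siLRH-1 #2 became 2 with own variances, 3 at 0.01, 0 within the set of 5, 3 within the set of 7, 0 without both arrays and 2 to 7 without 1 array. The 11 between the siRNAs became 7, 6, 3, 7, 6 and 6 to 12 in the same order. Within a set fewer arrays enter and 1 or more groups have a single array, assumed to vary like the others; the other causes were not tested.

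Over all probes, the 2813 calls with siLRH-1 #1 became 1715 at 0.01 and 351 within the set of 5. The 936 with siLRH-1 #2 became 367 with own variances, 466 at 0.01, 514 without siLUC replicate 2, 498 without siLRH-1 #2 replicate 1, 1428 with the sets as a block, 273 and 366 within the sets and 229 without both arrays. The 2068 between the siRNAs became 1194 at 0.01, 1302 without siLRH-1 #1 replicate 3, 1299 without siLRH-1 #2 replicate 1, 975 and 991 within the sets and 1289 without both arrays.

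The replicate numbers did not pair the arrays: deviations of same-numbered arrays correlated at −0.041 to 0.043 (12 pairs), others at −0.056 to 0.051. With the replicate block 1, 1 and 2 of the 13 probes and 18, 7 and 11 of the 76 passed, and 2758, 899 and 2026 over all probes. Probes near background may understate a change.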
